A study of Mus musculus with 6 samples.

Results

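Of the 19225 genes listed in the deposited table, 54 were protein-coding genes whose symbols named an SR protein (*Srsf* followed by a number), an hnRNP (*Hnrnp*), a subunit of SF3A or SF3B (*Sf3a*, *Sf3b*), a core or specific snRNP protein (*Snrp*) or a subunit of U2AF (*U2af1*, *U2af2*). They comprised 10 SR proteins, 20 hnRNPs, 9 SF3A and SF3B subunits, 12 snRNP proteins and 3 U2AF genes. They were picked by symbol and gene type, with earlier results of these data known. The 3 processed pseudogenes with matching symbols (*Hnrnpa1l2-ps*, *Snrp1c-ps1* and *Snrpert*) were not counted. RNA came from microglia that had been enriched with CD11b beads from the brains, without cerebellum, of unstressed male mice. There were 3 *Cnr1*+/+ mice, whose strain is labelled C57BL6/J, and 3 *Cnr1*-/- mice, 1 library per mouse, and the methods describe the genotypes as littermates bred mainly from heterozygous pairs. *Cnr1*-/- mice carry the allele Cnr1 tm1Zim in every cell, a cassette that disrupts the coding region of the cannabinoid receptor CB1, on a background backcrossed to C57BL/6J. The labels give an age of 3 months for both groups, whereas the methods give a younger age for the experiments. The comparison asks how microglia without stress differ between the genotypes.

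The spliceosome removes introns by assembling small nuclear ribonucleoproteins (snRNPs) on the splice sites. U2AF binds the end of the intron and helps to place the U2 snRNP, which holds SF3A and SF3B, on the branch point. SR proteins mostly bind exonic enhancers and promote splice-site use, hnRNPs coat the nascent transcript and often silence splice sites, and the balance of both families sets alternative splicing. Many of these genes regulate their own mRNA through exons that trigger its decay, and the values here are levels of mRNA, not of protein or of splicing.

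Sequences upstream of the start sites of members whose groups of libraries did not overlap between the genotype labels are shown first. These were 6 of the 50 tested members (12%), all higher under the label *Cnr1*-/-. Of all tested genes, 8.85% were separated in this direction and 2.13% in the other. No member differed between the labels after adjustment, so the choice of these members does not mark a difference by genotype. RefSeq windows of the 250 bases before a start site (GRCm38.p6) were at hand for 47 of the 54 members, in 65 windows. No window was at hand for *Sf3b5*, *Hnrnpll*, *Sf3b4*, *U2af2*, *Snrpd1*, *Hnrnpul2* and *Snrpb*. Of the 6 members whose groups of libraries did not overlap, 5 had at least 50 bases outside annotated UTRs, and these stretches are given 5′ to 3′ on the strand of the gene, from chr12:80945249-80945498 (+) for *Srsf5*, chr11:88047123-88047372 (+) for *Srsf1*, chr13:58402143-58402247 (−) for *Hnrnpk*, chr1:178337816-178338065 (−) for *Hnrnpu* and chr17:31658893-31659014 (−) for *U2af1*. Capitals mark the ETS motif CCGGAAG and the CCAAT box, on either strand.
*Srsf5*: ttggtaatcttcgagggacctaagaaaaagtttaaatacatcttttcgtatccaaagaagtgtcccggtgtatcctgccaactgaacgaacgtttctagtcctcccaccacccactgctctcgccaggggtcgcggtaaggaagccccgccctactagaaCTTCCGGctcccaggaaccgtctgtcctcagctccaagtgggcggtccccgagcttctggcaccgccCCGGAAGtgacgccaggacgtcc
*Srsf1*: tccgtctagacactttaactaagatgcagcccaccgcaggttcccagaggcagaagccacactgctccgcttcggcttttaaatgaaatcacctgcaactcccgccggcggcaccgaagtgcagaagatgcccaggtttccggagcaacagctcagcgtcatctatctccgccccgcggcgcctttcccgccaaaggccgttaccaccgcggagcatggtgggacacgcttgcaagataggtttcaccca
*Hnrnpk*: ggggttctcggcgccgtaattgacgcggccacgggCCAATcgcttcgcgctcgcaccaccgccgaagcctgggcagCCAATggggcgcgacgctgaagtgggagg
*Hnrnpu*: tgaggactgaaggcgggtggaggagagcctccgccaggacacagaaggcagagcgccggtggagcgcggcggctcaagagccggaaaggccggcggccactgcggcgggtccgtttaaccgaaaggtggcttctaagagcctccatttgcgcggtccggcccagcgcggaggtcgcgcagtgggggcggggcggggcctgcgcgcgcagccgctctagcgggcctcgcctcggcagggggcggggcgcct
*U2af1*: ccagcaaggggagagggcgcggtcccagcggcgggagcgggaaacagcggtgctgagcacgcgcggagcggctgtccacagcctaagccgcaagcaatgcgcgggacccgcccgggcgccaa

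The shown stretch of *Srsf5* held 2 ETS motifs, that of *Hnrnpk* held CCAAT boxes, and those of *Srsf1*, *Hnrnpu* and *U2af1* held neither, although the full windows of *U2af1* held CCAAT boxes nearer to the start, outside the stretch shown. The shares that follow are over full windows. Over all members with a window, CCGGAAG occurred in 19 of 65 windows (29.2%), against 15.4% of the 6640 windows of tested protein-coding genes and 6.91% of all 32851 windows. CCAAT occurred in 44.6% of the members' windows, 34.0% of those of tested protein-coding genes and 33.8% of all. The SP motif GGGCGG, searched on both strands without regard to overlap with other motifs, occurred in 66.2%, 58.9% and 32.7%, and the TATA box TATAAA in 9.23%, 6.07% and 12.4%. The median GC content was 60.8% in the members' windows and 60.4% in those of tested protein-coding genes. Windows of 1 gene can overlap each other, and a match of letters is not a binding site.

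The libraries were made from the 3′ ends of polyadenylated transcripts, so that a transcript gives about 1 fragment and the values, reads scaled to the size of the library by the authors (CPM, written cpm), were not divided by gene length. A library's step of 1 read corresponded to between 7708813 and 10723828 reads. The disrupted gene goes against the labels, since *Cnr1* had 0 cpm in all 3 *Cnr1*+/+ libraries but 1.41, 1.21 and 1.79 cpm in the *Cnr1*-/- libraries. The reason was not tested, and every direction below refers to the label a library carries. Markers of microglia were high throughout, at a sum of 17295 to 20186 cpm for 14 genes. Neutrophil markers summed to 4110 cpm and erythrocyte markers to 2337 cpm in *Cnr1*-/- replicate 2, against 269 to 530 cpm and 136 to 237 cpm in the other libraries, and counts and members' values without this library are given for the results that rest on it. In bulk RNA, fewer cells of a type and less RNA per cell cannot be told apart.

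Splicing genes were among the more abundant mRNAs of these cells. The median of the members' mean levels was 51.9 cpm, against 8.19 cpm over the 14004 protein-coding genes listed, and 13 members had a mean of at least 100 cpm. Together the 54 members took between 3608 and 4316 cpm of a library, of which 50.1% came from the 10 most abundant. The highest was *Srsf11*, which ranked 100th of all listed genes at 395 cpm, followed by *Sf3b1* (264 cpm), *Srsf5* (234 cpm), *Hnrnpa2b1* (200 cpm) and *Srsf2* (178 cpm). At the other end, *Sf3a2*, *U2af1l4*, *Snrpn* and *Snrpf* had means of 8.94, 7.51, 7.37 and 3.14 cpm, under the minimum of 10 cpm, and were left out of the fit, which leaves 50 members tested. Within a genotype label, the median coefficient of variation of the tested members was 12.7% in *Cnr1*+/+ and 9.83% in *Cnr1*-/-, where counting alone gives a median of 4.27%.

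**Figure D1:**
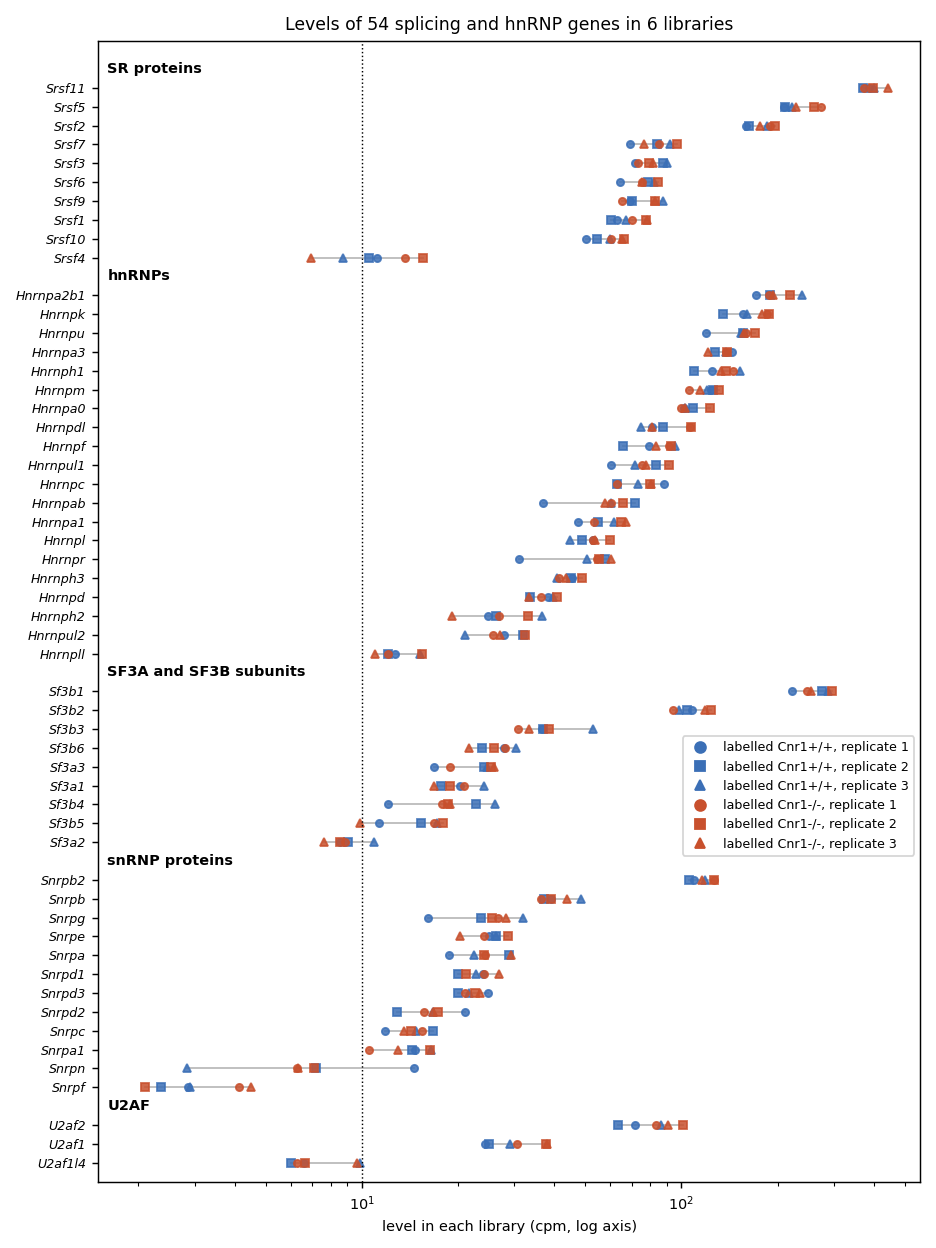
Level of each of the 54 members in each of the 6 libraries (cpm, log axis), ordered by mean within its family, with grey lines from the lowest to the highest library and a dotted line at the minimum mean of 10 cpm. The spread of a member over libraries is small beside the differences between members, except for *Snrpn*, which runs from 2.84 to 14.5 cpm.

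No member differed between the genotype labels after adjustment, and the few with a nominal difference were about as frequent as among all genes. With limma on log2(cpm + 0.1), fitted over all 6659 genes that averaged 10 cpm or more, 3 of the 50 tested members (6%) had a nominal p under 0.05, against 6.02% of all tested genes. All 3, *U2af1*, *U2af2* and *Hnrnpk*, were higher in the libraries labelled *Cnr1*-/-. Of all tested genes, 339 (5.09%) had a nominal p under 0.05 in this direction and 62 in the other. Which members were called depended on the scaling. They were *U2af1* (higher) and *Sf3b3* (lower) under quantile normalisation (5.41% of all tested genes called) and with equal totals without mitochondrially encoded genes (5.32%). With each library centred on its median they were *U2af1*, *U2af2* and *Hnrnpk* (higher) and *Sf3b3* (lower), against 5.63% of all tested genes. With an adjusted p under 0.1, limma called 0 members, against 0.105% of all tested genes, and the alternative weights of vooma and voom also called 0 members after adjustment and 4 at a nominal p under 0.05, with *Srsf5* added, against 5.84% and 6.13% of all tested genes. Members' adjusted p values started at 0.792. Of the 50, 36 had a log2 fold change above 0 (72%, against 68.4% of all tested genes), the median was 0.07 against 0.08 over all tested genes, and no member exceeded a fold change of 1.5. The median standard error was 0.15, so a log2 fold change as small as the median of 0.07 lay within the error of a single gene. The groups of libraries did not overlap for 6 of the 50 members (12%), in each case with the *Cnr1*-/- label above. In these 6, *U2af1*, *Hnrnpk*, *Hnrnpu*, *Srsf1*, *Srsf5* and *Srsf10*, every library labelled *Cnr1*-/- lay above every library labelled *Cnr1*+/+, as in 8.85% of all tested genes. The reverse, seen in 2.13% of all tested genes, was seen in 0 members. This split depended on the scaling, and with each library centred on its median or under quantile normalisation 5 members lay above and *Sf3b3* below, and with equal totals without mitochondrially encoded genes 4 lay above and *Sf3b3* and *Srsf3* below. In these scalings 5.27%, 5.63% and 6.42% of all tested genes lay below, and 10.5% to 10.6% did not overlap in either direction. The groups of *Srsf5* and *Hnrnpu* overlapped under all 3 and those of *Hnrnpk* with equal totals, whereas those of *U2af2* did not overlap under any of the 3. The two-sided exact permutation p of each of the 6 was 0.1, the smallest that 3 against 3 allow. Without *Cnr1*-/- replicate 2, the library with neutrophil transcripts, 0 of 50 members had a nominal p under 0.05 with limma, against 3.81% of all genes tested then, and 11 members did not overlap (17.6% of all genes), 7 higher and 4 lower under the label *Cnr1*-/-, where 6.44% of all genes were lower. Without *Cnr1*+/+ replicate 2, *Hnrnpr* alone had a nominal p under 0.05, against 5.52% of all genes. Without *Cnr1*+/+ replicate 3 there were 7 members, all higher in libraries labelled *Cnr1*-/-, against 9.07% of all genes.

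**Figure D2:**
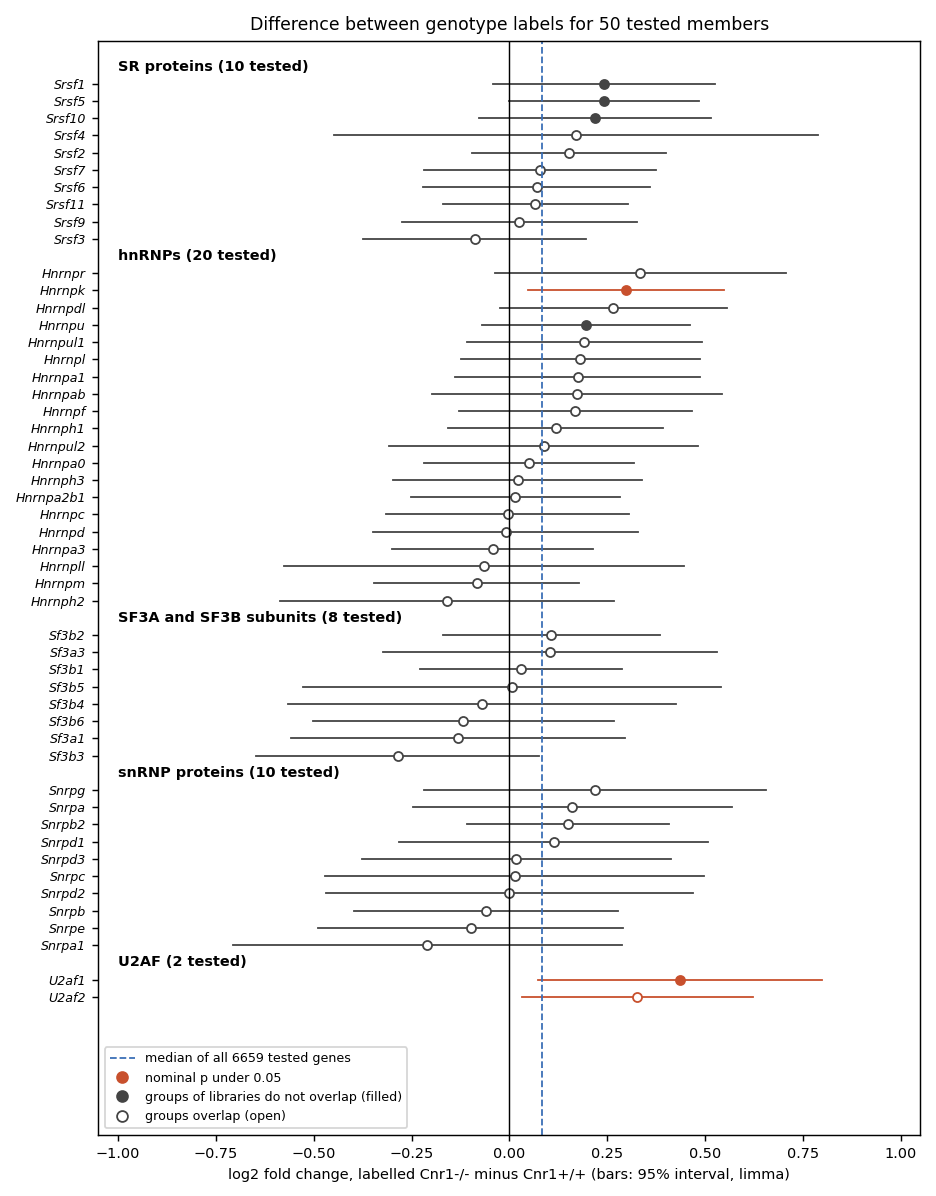
Log2 fold change between the genotype labels of the 50 tested members by family, with 95% intervals from limma; filled points mark members whose groups of libraries do not overlap, and red those with a nominal p under 0.05. Most intervals span 0, and *U2af1*, *U2af2* and *Hnrnpk* are the 3 members whose intervals do not.

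U2AF recognises the polypyrimidine tract and the terminal AG of the intron through its large and small subunit. *U2af1* (chromosome 17, 31647081 to 31658892, − strand), which encodes the small subunit, was measured at 24.3, 24.9 and 29.1 cpm under the label *Cnr1*+/+ and at 30.6, 37.6 and 38.0 cpm under *Cnr1*-/-. The lowest value labelled *Cnr1*-/- thus lay just above the highest value labelled *Cnr1*+/+. The means were 26.1 ± 2.62 and 35.4 ± 4.18 cpm (SD, n = 3). The difference on the log2 scale was 0.44 (standard error 0.18, limma nominal p = 0.0205, adjusted p = 0.792, exact permutation p = 0.1). *U2af2* (chromosome 7, 5062143 to 5079938, + strand), the large subunit, had 71.7, 63.2 and 86.1 cpm against 83.5, 101 and 91.1 cpm. Its groups overlapped in the deposited scaling, where *Cnr1*+/+ replicate 3 exceeded *Cnr1*-/- replicate 1, but not under the 3 other scalings. The difference on the log2 scale was 0.33 (standard error 0.14, limma nominal p = 0.0313, adjusted p = 0.809, exact permutation p = 0.2). The paralogue *U2af1l4*, untested, had 6.62, 5.99 and 9.89 cpm and 6.28, 6.62 and 9.66 cpm, with replicate 3 the highest under both labels. Leaving out *Cnr1*-/- replicate 2 gave nominal limma p values of 0.0715 for *U2af1* and 0.131 for *U2af2*, at log2 fold changes of 0.39 and 0.25. Without *Cnr1*+/+ replicate 2, the lowest library for *U2af2*, they were 0.0536 and 0.167, and without *Cnr1*-/- replicate 3 they were 0.0786 and 0.0650.

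Near-identical copies complicate *U2af1*. Of the 50-base stretches in the last 400 bases of its GENCODE transcripts, 76.7% also occurred in another gene, and its value was a whole number of reads in only 1 of 6 libraries. Of the 3 genes that share them, *Gm10232* was listed, at 0 to 2.10 cpm. Summed with *Gm10232*, a step added after seeing the data, *U2af1* had 24.9, 26.1 and 31.2 cpm against 32.4, 38.5 and 38.0 cpm, and the groups still did not overlap. *U2af2* shared no stretch and was whole in 6 of 6 libraries. *U2af1l4* shared 72.5% with the readthrough gene *Gm49396*, which the table did not list, and its value was whole in 6 of 6 libraries.

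Within the U2 snRNP, SF3B contacts the branch point and SF3A tethers it. The largest subunit gene, *Sf3b1* (chromosome 1, 54985169 to 55027481), had 222, 275 and 288 cpm in libraries labelled *Cnr1*+/+ and 248, 296 and 255 cpm in those labelled *Cnr1*-/-. These ranges largely coincided, with a log2 fold change of 0.03 (95% interval −0.23 to 0.29, limma). *Sf3b2* had 108, 104 and 98.2 cpm against 93.9, 124 and 118 cpm, so the lowest and the 2 highest values were all labelled *Cnr1*-/-. *Sf3b3* (chromosome 8, 110810239 to 110846787), a scaffold subunit, had the lowest log2 fold change of all tested members, −0.29 (standard error 0.18, limma nominal p = 0.117, adjusted p = 0.857, exact permutation p = 0.3). Its values were 36.7, 36.8 and 53.0 cpm against 30.7, 38.6 and 33.3 cpm, with *Cnr1*+/+ replicate 3 far above the other libraries. When each library was centred on its median, under quantile normalisation, and with equal totals without mitochondrially encoded genes, its log2 fold change was −0.36, −0.37 and −0.38, with limma nominal p values of 0.0264, 0.0278 and 0.0229. Without *Cnr1*-/- replicate 2 it was −0.38, with a limma nominal p value of 0.0649, but without *Cnr1*+/+ replicate 3 it was −0.11, with a value of 0.550. *Sf3b5* had the lowest mean of the tested subunits, with 11.3, 15.4 and 17.1 cpm against 16.9, 18.0 and 9.90 cpm. *Sf3a2* lay between 7.63 and 10.9 cpm. Of the 8 tested subunits, 4 had a log2 fold change above 0 and 4 below, with a median of −0.03, and none had a nominal p under 0.05. The 9 subunits summed to 522 ± 55.4 and 522 ± 47.0 cpm (SD, n = 3) in libraries labelled *Cnr1*+/+ and *Cnr1*-/-.

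The *Snrp* genes encode the Sm ring that is common to most spliceosomal snRNPs and proteins specific to U1 and U2. *Snrpb2*, a protein of the U2 snRNP, was the most abundant, with 109, 105 and 118 cpm in libraries labelled *Cnr1*+/+ and 127, 126 and 116 cpm in those labelled *Cnr1*-/-. Only *Cnr1*-/- replicate 3 fell into the range of the other group, and the log2 fold change was 0.15 (95% interval −0.11 to 0.41, limma). The Sm protein genes *Snrpb* and *Snrpg* followed at means of 40.7 and 25.4 cpm. *Snrpb* had 39.2, 37.1 and 48.5 cpm against 36.3, 39.0 and 44.0 cpm. *Snrpg* had 16.2, 23.6 and 32.0 cpm against 26.7, 25.5 and 28.3 cpm, so that the libraries labelled *Cnr1*+/+ held both its lowest and its highest value. *Snrpa1*, another U2 protein, lay between 14.4 and 16.5 cpm in libraries labelled *Cnr1*+/+ and between 10.5 and 16.4 cpm in those labelled *Cnr1*-/-, with a log2 fold change of −0.21 (95% interval −0.71 to 0.29, limma) that was −0.0524 without *Cnr1*-/- replicate 1 and −0.37 without *Cnr1*-/- replicate 2. The Sm gene *Snrpf* was the lowest member, with 2.86, 2.36 and 2.91 cpm against 4.14, 2.10 and 4.50 cpm. *Snrpn*, an imprinted gene expressed mainly in neurons, had 14.5, 7.17 and 2.84 cpm in libraries labelled *Cnr1*+/+ and 6.28, 7.09 and 6.32 cpm in those labelled *Cnr1*-/-. Its 5.12-fold range over libraries was the widest of all members, and the 9 neuron markers summed to 54.4, 55.4 and 40.6 cpm in the same *Cnr1*+/+ libraries and to 54.6, 51.3 and 52.5 cpm in the others. Of the 10 tested snRNP genes, 7 had a log2 fold change above 0, the median was 0.02 and none had a nominal p under 0.05.

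SR proteins bind RNA through an RRM and recruit the spliceosome through a domain rich in arginine and serine. *Srsf11* had 386, 370 and 401 cpm in libraries labelled *Cnr1*+/+ and 373, 398 and 442 cpm in those labelled *Cnr1*-/-. The groups overlapped and the log2 fold change was 0.07 (95% interval −0.17 to 0.30, limma). *Srsf5* (chromosome 12, 80945504 to 80950507, + strand) had 209, 211 and 222 cpm against 273, 259 and 228 cpm, so the groups did not overlap, with *Cnr1*-/- replicate 3 closest to the other label. On the log2 scale it differed by 0.24 (standard error 0.12, limma nominal p = 0.0505, adjusted p = 0.825, exact permutation p = 0.1). *Srsf1*, the prototype of the family, had 62.9, 60.5 and 67.3 cpm against 69.9, 77.6 and 78.2 cpm, which gave a log2 fold change of 0.24 (limma nominal p = 0.0905, exact permutation p = 0.1). *Srsf10*, which is known for acting in heat shock and in the cell cycle, had 50.2, 54.6 and 59.9 cpm against 60.1, 66.0 and 65.3 cpm, and its groups were separated by the narrowest margin (limma nominal p = 0.141, exact permutation p = 0.1). *Srsf2* had 159, 162 and 185 cpm against 190, 196 and 177 cpm, with *Cnr1*-/- replicate 3 inside the range of the other group. *Srsf4* was the lowest SR gene and the most variable, with 11.2, 10.6 and 8.73 cpm against 13.6, 15.6 and 6.92 cpm. In all, 9 of the 10 had a log2 fold change above 0, with a median of 0.12 against 0.08 over all tested genes, and none had a nominal p under 0.05. *Srsf3* was the exception at −0.09. *Srsf5* passed 0.05 with the weights of vooma and voom and without shrinkage (limma nominal p values of 0.0473, 0.0458 and 0.0403), and *Srsf1* without shrinkage (0.0243). With eBayes without trend the p values were 0.145 and 0.139. Under the 3 other scalings the log2 fold change fell to between 0.14 and 0.17 for both, with p values of 0.112 to 0.186 for *Srsf5* and 0.152 to 0.238 for *Srsf1*. Without *Cnr1*-/- replicate 2 the log2 fold changes of *Srsf5*, *Srsf1* and *Srsf10* were 0.22, 0.22 and 0.19, with limma nominal p values of 0.127, 0.194 and 0.269. Of the SR genes, none shared a 50-base stretch with another gene. *Srsf5*, *Srsf3* and *Srsf10* nevertheless had whole reads in 0 of 6 libraries.

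**Figure D3:**
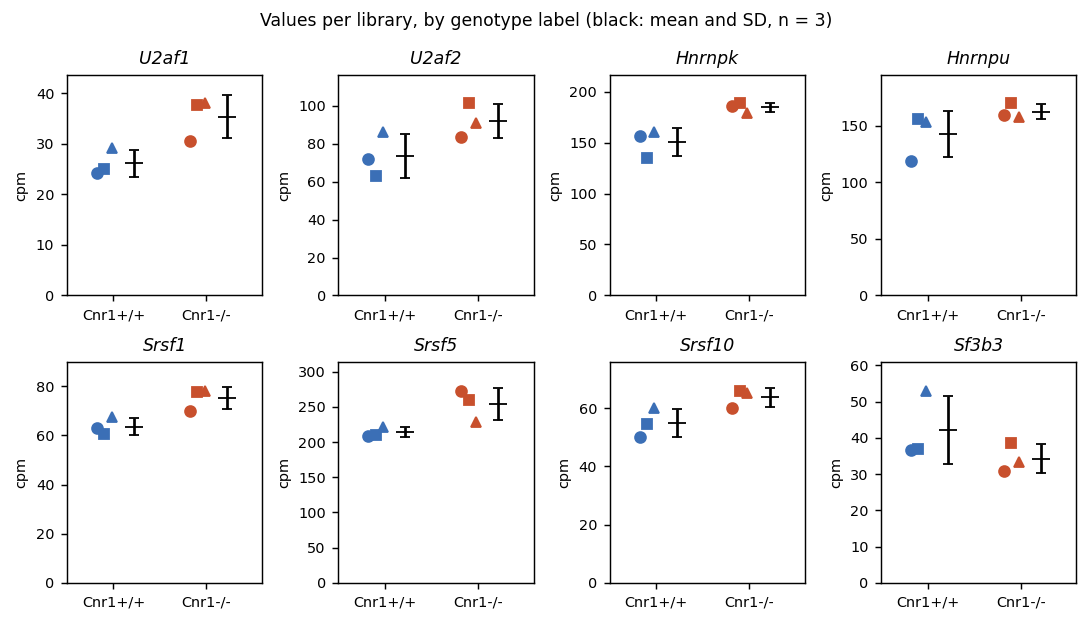
Values in cpm of *U2af1*, *U2af2*, *Hnrnpk*, *Hnrnpu*, *Srsf1*, *Srsf5*, *Srsf10* and *Sf3b3* in each library, by genotype label, with the mean and SD (n = 3) in black and axes from 0. The groups do not overlap except for *U2af2* and *Sf3b3*, whose highest and lowest libraries of the opposite label cross.

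Among the hnRNPs, *Hnrnpk* (chromosome 13, 58391142 to 58403343, − strand), a protein with KH domains that binds C-rich RNA and DNA, stood at 156, 135 and 160 cpm under the label *Cnr1*+/+ and at 186, 188 and 179 cpm under *Cnr1*-/-. The groups did not overlap in the deposited values, with means of 150 ± 13.6 and 184 ± 4.75 cpm (SD, n = 3). They differed by 0.30 on the log2 scale (standard error 0.12, limma nominal p = 0.0214, adjusted p = 0.792, exact permutation p = 0.1). Leaving out *Cnr1*+/+ replicate 2, its lowest library, gave 0.22 and a limma nominal p of 0.107, and leaving out *Cnr1*-/- replicate 1 or 2 gave p values of 0.0584 and 0.0617. Under quantile normalisation and under equal totals without mitochondrially encoded genes the p values were 0.0544 and 0.0788, and the groups overlapped under the latter. Of its 50-base stretches, 31.5% occurred in the copies *Gm7964* or *Gm4130*, and its value was whole in 1 of 6 libraries. *Gm7964* was listed at 0.21 to 1.18 cpm, and with it added, a step chosen after seeing the data, the groups stayed apart (158, 136 and 160 cpm against 186, 189 and 180 cpm). *Hnrnpk* overlaps *Rmi1* (mean 21.8 cpm) on the opposite strand. Among other members with such an overlap, *Hnrnpu* overlaps *Cox20* (23.6 cpm) and *U2af1l4* overlaps *Psenen* (38.3 cpm). Whether the counting used strand was not given in the sources used here.

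*Hnrnpa2b1* was the most abundant hnRNP, with 172, 190 and 238 cpm in libraries labelled *Cnr1*+/+ and 188, 220 and 194 cpm in those labelled *Cnr1*-/-. The first group enclosed the second, and the log2 fold change of 0.01 (95% interval −0.25 to 0.28, limma) turned below 0 (−0.0606) when each library was centred on its median. *Hnrnpu*, a nuclear scaffold protein, had 119, 156 and 153 cpm against 160, 170 and 157 cpm. Its groups were apart by a narrow margin, between *Cnr1*+/+ replicate 2 and *Cnr1*-/- replicate 3, and the log2 fold change was 0.20 (limma nominal p = 0.142, exact permutation p = 0.1). The log2 fold change of *Hnrnpu* was 0.16 without *Cnr1*-/- replicate 2 but 0.0702 without *Cnr1*+/+ replicate 1, its lowest library, and 0.12, 0.0938 and 0.0961 under the 3 other scalings. *Hnrnpr* had the next largest log2 fold change after *U2af1* among all members, 0.33 (standard error 0.18, limma nominal p = 0.0751, exact permutation p = 0.3). Its values were 31.0, 57.7 and 50.6 cpm against 54.5, 55.3 and 60.3 cpm, and the difference lay largely in *Cnr1*+/+ replicate 1, without which the log2 fold change was 0.07. *Hnrnph2* had 24.8, 26.3 and 36.6 cpm against 26.8, 33.2 and 19.2 cpm, with a log2 fold change of −0.16 (95% interval −0.59 to 0.27, limma) that turned above 0 without *Cnr1*+/+ replicate 3 (0.0126) or without *Cnr1*-/- replicate 3 (0.0517). The least abundant hnRNPs, *Hnrnpul2* and *Hnrnpll*, had means of 27.7 and 13.1 cpm. *Hnrnpul2* had 27.9, 31.9 and 21.0 cpm against 25.7, 32.4 and 27.1 cpm. *Hnrnpll*, known from T-cell splicing, reached at most 15.4 cpm, and the groups overlapped for both. Of the 20 hnRNPs, 14 had a log2 fold change above 0, the median was 0.10, and *Hnrnpk* alone had a nominal p under 0.05. Stretches were also shared with copies by *Hnrnpa3*, which matched 37 other genes (43.7%), by *Hnrnpf* (39.6%) and, among the snRNP genes, by *Snrpc* (42.1%) and *Snrpa* (24.3%). Values were whole in 0 of 6 libraries for *Hnrnpa3*, 1 of 6 for *Snrpc*, 6 of 6 for *Hnrnpf* and 5 of 6 for *Snrpa*, and the table listed copies of *Hnrnpa3* and *Snrpc* but none of those of *Hnrnpf* and *Snrpa*.

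The members moved with the libraries as a whole. The median deviation of the tested members from their own means over the 6 libraries was −0.11, −0.07 and 0.05 on the log2 scale in *Cnr1*+/+ replicates 1, 2 and 3 and −0.01, 0.15 and −0.01 in *Cnr1*-/- replicates 1, 2 and 3. Over all tested genes it was −0.13, −0.03, 0.06, −0.03, 0.13 and 0.03 in the same order. *Cnr1*+/+ replicate 1 was the lowest library for 19 of the 50 tested members, whereas *Cnr1*-/- replicate 2 was the highest for 21 and the lowest for 0. The U2AF pair had medians of −0.25, −0.33 and 0.01 against 0.02, 0.31 and 0.24, and the SF3 subunits were highest in *Cnr1*+/+ replicate 3 at 0.23. The sum of the 54 members was 1.07 times higher in libraries labelled *Cnr1*-/-, close to the 1.08 of all listed genes, and the ratio of sums was 1.26 for U2AF, 1.09 for SR proteins, 1.07 for hnRNPs, 1.04 for snRNP proteins and 1.00 for SF3 subunits. When each library was centred on its median, the median log2 fold change of the members was −0.00116, under quantile normalisation −0.02 and with equal totals without mitochondrially encoded genes −0.03.

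**Figure D4:**
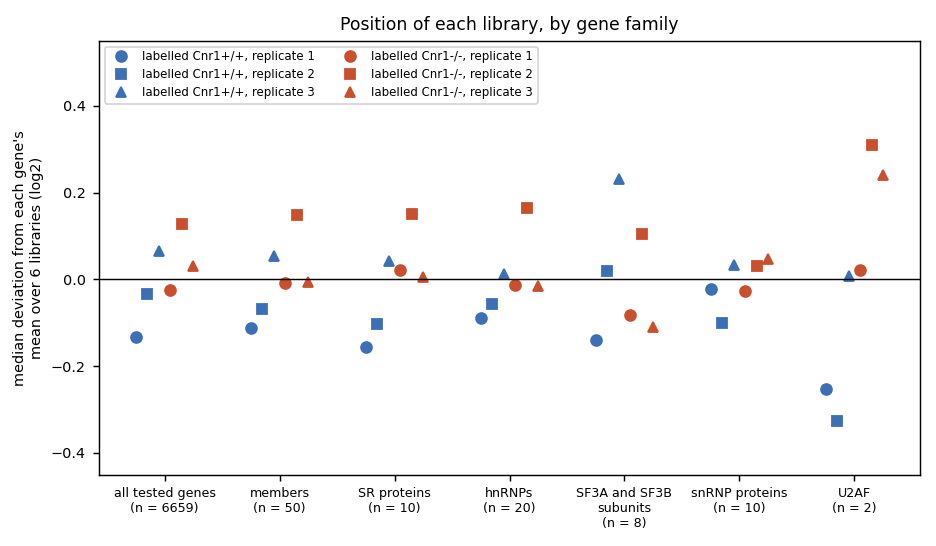
Median log2 deviation of each library from the genes' own means over the 6 libraries, for all tested genes, the tested members and each family (n, number of genes). *Cnr1*+/+ replicate 1 lies lowest and *Cnr1*-/- replicate 2 highest for all genes and for the members, and the U2AF pair spans the widest range, from −0.33 to 0.31.

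Other genes of the pathway were described from 4 lists of known partners, of which 100 genes were tested. Of these, 2 had a nominal p under 0.05 with limma, both higher in libraries labelled *Cnr1*-/-, against 6.02% of all tested genes in either direction, and 0 had an adjusted p under 0.1. *Sfswap*, a regulator with an RS domain, had 59.8, 79.3 and 73.6 cpm in libraries labelled *Cnr1*+/+ and 85.8, 94.2 and 87.9 cpm in those labelled *Cnr1*-/-, which did not overlap (log2 fold change 0.34, limma nominal p = 0.0224, adjusted p = 0.792, exact permutation p = 0.1). *Sf1*, which binds the branch point together with U2AF before the U2 snRNP arrives, had 67.7, 49.6 and 59.7 cpm against 71.6, 69.5 and 77.8 cpm, also without overlap (log2 fold change 0.31, limma nominal p = 0.0420, adjusted p = 0.821, exact permutation p = 0.1). Without *Cnr1*-/- replicate 2 the log2 fold changes were 0.30 for *Sfswap* and 0.35 for *Sf1*, with limma nominal p values of 0.0739 and 0.0477, and the groups of *Sf1* overlapped under the 3 other scalings. Neither nominal call was stable. That of *Sfswap* was lost without *Cnr1*+/+ replicate 1 (0.22, p value of 0.121), under quantile normalisation and equal totals (p values of 0.0533 and 0.0512), with eBayes without trend (0.0642) and without shrinkage (0.0562). That of *Sf1* was lost under all 3 scalings (p values of 0.106 to 0.145), with eBayes without trend (0.0894), without shrinkage (0.0863) and in 4 of 6 fits that left out a library, with p values from 0.0506 up to 0.224 without *Cnr1*+/+ replicate 2, where the log2 fold change was 0.20. By list, 1 of 23 tested SR kinases and other RS-domain proteins, 1 of 44 other spliceosome proteins, 0 of 29 other RNA-binding regulators and 0 of 4 tested U snRNP assembly factors had a nominal p under 0.05. Their median log2 fold changes were 0.11, 0.09, 0.05 and 0.12. Of the 11 assembly factors, 7 had means under 10 cpm, and their list summed to between 100 and 113 cpm. The *Snrnp* genes, a group added after seeing the data that includes the U1 protein gene *Snrnp70* at a mean of 216 cpm, numbered 7, of which 5 were tested and 0 had a nominal p under 0.05.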

How the data were processed

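CD11b-enriched microglia of 3 *Cnr1*+/+ and 3 *Cnr1*-/- mice were measured, 1 library per mouse, grouped by the sample labels. The authors prepared 3′ mRNA libraries, aligned the reads with STAR to mm10, quantified them per gene with Partek (expectation-maximisation, which splits shared reads) and applied TMM. The deposited values are CPM made by the authors, here written cpm. Between 82.2% and 83.7% of a library's values lay within 0.02 reads of a whole number, so count tests were not used. From the values, log2(cpm + 0.1) of genes with a mean of at least 10 was fitted with limma 3.58.1 in R 4.3.3 (lmFit, eBayes with trend), with genotype as the only term, two-sided, and Benjamini-Hochberg adjustment over all 6659 genes. Depths correspond to 7708813 to 10723828 reads. The step was tested on simulated data.

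Members and lists were chosen with earlier results of these data known. Members are named if they had a nominal p under 0.05, if their groups did not overlap, if they were among the 3 most abundant of a family (and in families of over 5 among the 2 least abundant), or if they had the 3 largest or smallest log2 fold changes. *Srsf3*, *Hnrnpa3*, *Hnrnpf*, *Snrpc*, *Snrpa*, *Snrnp70*, *Sfpq* and the copies were named after their values were seen. Coordinates are those of the table (mm10), and all 54 members matched GENCODE vM21. Shared 50-base stretches were searched in GENCODE vM21 transcripts. The list genes named, other than *Sfpq*, are those with a nominal p under 0.05. Other marker lists (border-associated macrophage, oligodendrocyte, astrocyte, endothelial, lymphocyte, dissociation response and proliferation) summed to 102 to 149, 426 to 861, 299 to 551, 22.1 to 36.5, 5.29 to 9.99, 221 to 264 and 101 to 158 cpm per library, where of the 8 lymphocyte markers 2 were listed. Replicates are separate mice. Figures were drawn with matplotlib.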

Additional observations from a re-analysis of the deposited data

How the results depend on the processing

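Across 12 other settings and 6 fits that each left out 1 library, 0 members had an adjusted p under 0.1 with limma. The 3 members with a nominal p under 0.05 became 1 with eBayes without trend (5.87% of all tested genes) and 0 to 7 when each library was left out (3.81% to 9.07%), reaching 0 when *Cnr1*-/- replicate 2 was absent, 1 when *Cnr1*+/+ replicate 2 was and 7 when *Cnr1*+/+ replicate 3 was. Other settings gave 2 to 4 (5.17% to 6.37%). The members' median log2 fold change of 0.07 reversed to −0.00116 with each library centred on its median, −0.0245 under quantile normalisation and −0.0251 with equal totals without mitochondrially encoded genes, where that of all tested genes was 0.00843, −0.00137 and −0.0160, and ranged from 0.01 to 0.13 when libraries were left out. Members without overlap, 6, numbered 9 to 12 with a library left out, against 17.6% to 26.1% of all genes tested there. Of these, 2 of 9 were lower in libraries labelled *Cnr1*-/- without *Cnr1*+/+ replicate 1 (7.04% of all genes), 4 of 11 without *Cnr1*-/- replicate 2 (6.44%) and 0 in the other 4 fits (3.43% to 5.52%). Of the partner lists, 2 genes passed the nominal threshold, against 6.02% of all tested genes. Under quantile normalisation (5.41%) and with equal totals without mitochondrially encoded genes (5.32%) it was 1, *Sfpq*, lower in libraries labelled *Cnr1*-/-. Centring each library on its median (5.63%) gave *Sfpq* (lower) and *Sfswap* (higher). The one-factor model without shrinkage called 4 (5.21%), and fits with a library left out called 1 to 4 (3.81% to 9.07%). Under quantile normalisation, with equal totals, without shrinkage and with eBayes without trend, 0 of the called genes were *Sfswap* or *Sf1*.

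Log2 fold changes of some named members changed sign. With each library centred on its median they became −0.0606, −0.0463, −0.0694, −0.00883 for *Hnrnpa2b1*, *Sf3b1*, *Sf3b5*, *Srsf11*, under quantile normalisation −0.0963, −0.0579, −0.0738, −0.051 for *Hnrnpa2b1*, *Sf3b1*, *Sf3b5*, *Srsf11*, and with equal totals −0.0846, −0.0118, −0.0704, −0.0927, −0.0329 for *Hnrnpa2b1*, *Hnrnpul2*, *Sf3b1*, *Sf3b5*, *Srsf11*. When each library was left out, those that changed sign ranged from −0.0883 to 0.147 for *Hnrnpa2b1*, from −0.342 to 0.0517 for *Hnrnph2*, from −0.202 to 0.0406 for *Hnrnpll*, from −0.0802 to 0.22 for *Hnrnpul2*, from −0.0866 to 0.103 for *Sf3b1*, from −0.168 to 0.276 for *Sf3b5*, from −0.137 to 0.0552 for *Snrpb*, from −0.0348 to 0.457 for *Snrpg*, from −0.0548 to 0.525 for *Srsf4*.

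*U2af1* kept a nominal p under 0.05 in every setting that used all 6 libraries. *U2af2* lost it under quantile normalisation (0.0631), equal totals (0.0811), eBayes without trend (0.0865) and no shrinkage (0.0993), and *Hnrnpk* under quantile normalisation (0.0544), equal totals (0.0788) and eBayes without trend (0.0799). With the replicate number as a block (replicate block), 3 members and 2 partner genes had a nominal p under 0.05, against 6.32% of all tested genes. They were the same members and partner genes as without the block, and the log2 fold change of *U2af1* was 0.44. Deviations of same-numbered libraries correlated at −0.06, −0.03 and −0.03, and those of differently numbered libraries at −0.004 to 0.040. The deviations were taken within groups of 3, which ties these values to each other. They cannot decide whether libraries of the same number were paired. Depth limits the lowest members, of which *Snrpf* rests on few reads.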
